A study of Mus musculus with 12 samples.

Results

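The P301S tau transgene and the loss of a single copy of Tia1 were compared directly, in the cortex of 9-month-old mice, without the WT libraries. The libraries were chosen by their titles: 3 libraries titled P301S and 3 titled as Tia1 heterozygotes, 6 of the 12 in the series. The comparison covers autosomal genes, of which the deposited count table lists 22825 among 24062 gene symbols. Enough reads for a test were found for 14227 of them, and 8598 were left out for low counts. Each library was made from total RNA of the cortex of a single mouse, with a stranded total RNA kit.

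PS19 mice, here called P301S, carry human tau with the P301S mutation under the Prnp promoter and have both copies of Tia1. They come from a line on a mixed B6 and C3 background. Tia1+/- mice carry no tau transgene and a knockout allele of Tia1 that was made in another inbred strain and backcrossed to C57BL/6J. The 4 genotypes came from crosses of these lines, and mice with end-stage disease were not sequenced, so the P301S libraries represent mice short of that stage.

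Tau is a microtubule-associated protein of axons, and the P301S mutation makes it prone to aggregate into tangles in neurons. TIA1 is an RNA binding protein that nucleates stress granules, cytoplasmic assemblies of stalled mRNA, and also acts in the nucleus on the choice of exons. In brains with tau tangles, astrocytes and microglia are known to turn on reactive genes, among them Gfap, Serpina3n, Clec7a and the complement genes.

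Some properties of the libraries bear on every value below. The total counts lay between 13058003 and 19146484 for P301S and between 14941823 and 15307751 for Tia1+/-. The genotype entries of the Tia1+/- libraries name the double mutant, and those of the libraries titled P301S Tia1+/- name the Tia1 heterozygote. Which genotype the P301S libraries are compared with, a single or a double mutant, therefore rests on the titles. If the genotype entries are followed in place of the titles, the P301S libraries are compared with other libraries, and 2904 autosomal genes pass the test. Tia1 itself was at 76.9, 70.1 and 71.0 CPM (counts scaled to a common library size by the TMM method) in the P301S libraries and at 60.7, 62.0 and 79.0 CPM in the Tia1+/- libraries. The groups overlapped, and the log2 fold change of P301S over Tia1+/- was 0.11, with a 95% interval from -0.17 to 0.39. Without Tia1+/- replicate 3, which stands apart from the rest, the log2 fold change of Tia1 was 0.25 (edgeR unadjusted p = 0.0127, adjusted p = 0.315). Over all 6 libraries, the Tia1 counts do not set the libraries labelled Tia1+/- apart from those labelled P301S, and P301S and Tia1+/- stand below for the libraries with these titles. The methods describe male mice. Xist, which is transcribed from the inactive X of females, had between 6 and 13 counts in the P301S libraries and between 3304 and 5693 in the Tia1+/- libraries. The Y-linked gene Ddx3y had 1605 to 2296 counts in P301S and 1 count in each Tia1+/- library. Sex and genotype therefore cannot be told apart, also for autosomal genes.

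Few autosomal genes passed the test between the cortical libraries of the P301S and Tia1+/- mice, which does not show that few differ. Across the 14227 genes tested, 1 passed the edgeR quasi-likelihood test at an adjusted p under 0.05, which is 0.00703% of them. This gene was higher in P301S, and no gene was called higher in Tia1+/-. At an unadjusted p under 0.05 there were 740 genes (5.2%), of which 335 (2.35%) were higher in P301S and 405 (2.85%) were higher in Tia1+/-. The 3 libraries of one group did not overlap the 3 of the other for 1782 genes (12.5%). The DESeq2 Wald test on the same libraries called 40 autosomal genes.

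The size of the differences was measured as well, since a p above the threshold does not show that values are alike. The fitted fold change was under 1.2-fold for 11231 genes (78.9%) and under 1.5-fold for 13415 (94.3%). The 95% interval of the fold change lay wholly within 1.5-fold of no change for 8572 genes (60.3%), within 2-fold for 11651 (81.9%) and within 1.2-fold for 1790 (12.6%). No gene had an interval within 1.1-fold, so the replicates do not resolve differences of that size. The share of genes with an interval within 1.5-fold was 85.0% among the 2369 genes with a mean of 100 CPM or more, 79.2% between 10 and 100 CPM, and 18.6% between 1 and 10 CPM. The fitted change was 2-fold or more for 236 genes, 70 of them higher in P301S and 166 higher in Tia1+/-.

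**Figure D1:**
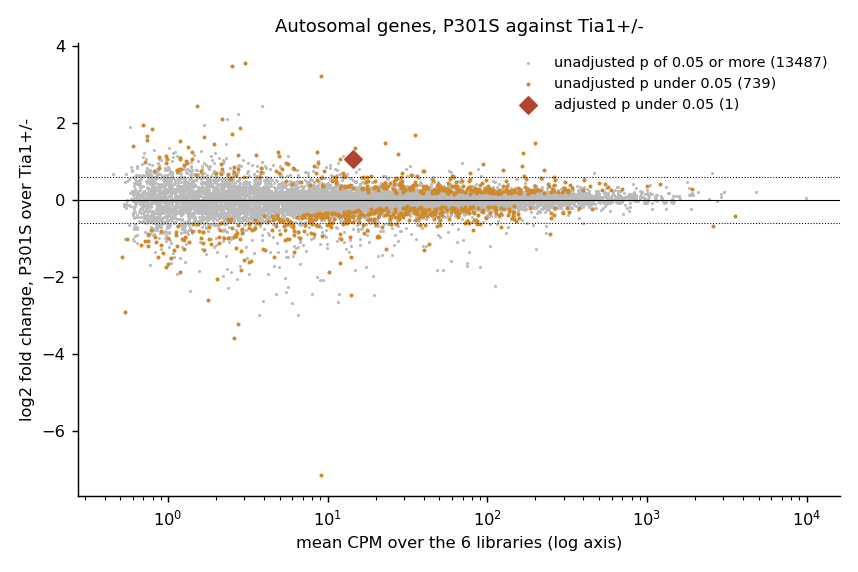
Log2 fold change of P301S over Tia1+/- (vertical axis) against the mean CPM of the 6 libraries (horizontal axis, log scale) for 14227 autosomal genes, with dotted lines at 1.5-fold. The spread of the points narrows as the level rises, 94.3% lie between the dotted lines, and the diamond is Gm8615, the gene with an adjusted p under 0.05.

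The genes most alike, by the rule that the farther bound of the interval be nearest to no change among genes of at least 100 CPM, included Zzef1 and Cs. Zzef1, a zinc finger protein, was at 106, 106 and 105 CPM in P301S and at 105, 105 and 110 CPM in Tia1+/-. Its log2 fold change was -0.01, with an interval from -0.16 to 0.14. Cs, the citrate synthase of the tricarboxylic acid cycle, was at 263, 253 and 260 CPM in P301S and at 267, 253 and 253 CPM in Tia1+/-. Arpc1a of the actin nucleating Arp complex, Cnot7 of the mRNA deadenylase, Trappc11, Clptm1l, Npepps, Ccdc104 and 1110004F10Rik were also among the 10 most alike. The groups overlapped for each of these genes.

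Leaving aside Tia1+/- replicate 3, pairs of libraries from the different genotypes were about as far apart as pairs of P301S libraries. They were farther apart than Tia1+/- replicates 1 and 2. The distance used was the root mean square (RMS) difference of log2 CPM over the 14227 genes. The 3 pairs within P301S were 0.358, 0.401 and 0.427 apart. The 6 pairs of a P301S library with Tia1+/- replicate 1 or 2 lay between 0.367 and 0.444, with a median of 0.419. Tia1+/- replicates 1 and 2 were 0.283 apart, the smallest distance of the 15 pairs. Tia1+/- replicate 3 was 0.664 and 0.686 from the other libraries of its own group and between 0.571 and 0.65 from the P301S libraries. It was the highest or the lowest of the 6 libraries for 56.1% of genes, against 26.1% to 31.9% for each of the others. These distances are a description, since pairs share libraries.

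**Figure D2:**
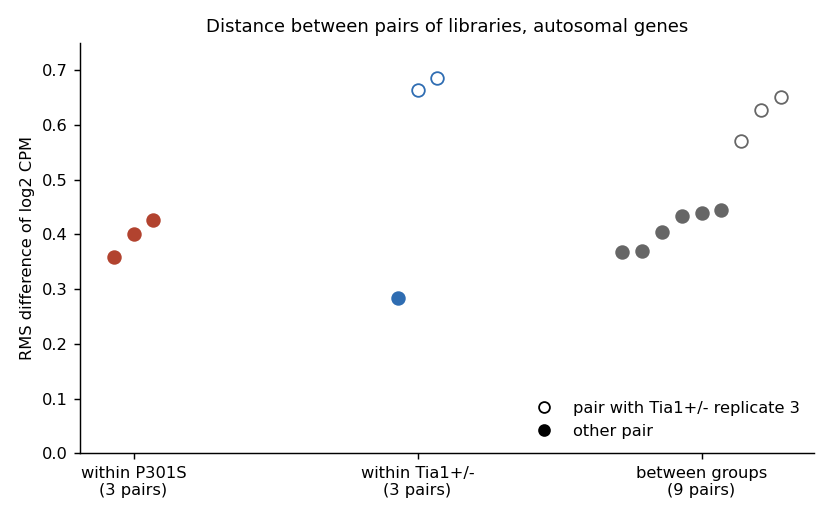
RMS difference of log2 CPM (vertical axis) for the 15 pairs of libraries, by whether the pair lies within P301S, within Tia1+/- or between the groups. Open circles are pairs with Tia1+/- replicate 3, all above 0.57, and the filled pairs between groups (0.367 to 0.444) span nearly the same range as those within P301S (0.358 to 0.427).

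Tia1+/- replicate 3 held more RNA of striatal, olfactory bulb and pituitary genes than the other libraries. The summed level of 11 striatal neuron markers was 1891 CPM in it and between 179 and 346 CPM in the other 5 libraries. Rgs9, a regulator of G protein signalling in striatal neurons, was at 200.4 CPM in this library and between 10.6 and 30.5 CPM in the others. The 9 olfactory bulb markers summed to 167 CPM there and to between 10.8 and 21.3 CPM elsewhere. Markers of excitatory cortical neurons summed to 1661 CPM there and to between 2599.8 and 3404 CPM in the other libraries, and Neurod6, a transcription factor of these neurons, was at 15.8 CPM against 84.9 to 121 CPM. In bulk tissue, fewer cells of a type and less RNA per cell cannot be told apart. The medians of the striatal and bulb lists over P301S against Tia1+/- were -1.75 and -1.82 on the log2 scale with all 6 libraries, and 0.77 and 0.17 without this library. The median of the excitatory cortical neuron markers was 0.10 with all 6 libraries and -0.15 without this library. Of these 15 markers, 10 and then 3 had a fitted level higher in P301S. Without Tia1+/- replicate 3, 9 autosomal genes were called, 4 higher in P301S and 5 higher in Tia1+/-, and the unadjusted p was under 0.05 for 1740 (12.1%).

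The prolactin gene Prl, a hormone gene of the anterior pituitary, was at 0.308 CPM in P301S replicate 1, listed at 0 in the other P301S libraries, and at 5.59, 16.0 and 32.8 CPM in the Tia1+/- libraries. The growth hormone gene Gh was at 0.872, 0.238 and 0 CPM in P301S and at 1.23, 3.83 and 9.31 CPM in Tia1+/-. For both genes the groups did not overlap, as was so for 12.5% of all autosomal genes. The adjusted p was 0.222 for Prl and 0.892 for Gh by edgeR. Of the 3 pituitary markers tested, all 3 had an unadjusted p under 0.05, beside 5.2% of all autosomal genes, and none was called.

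**Figure D3:**
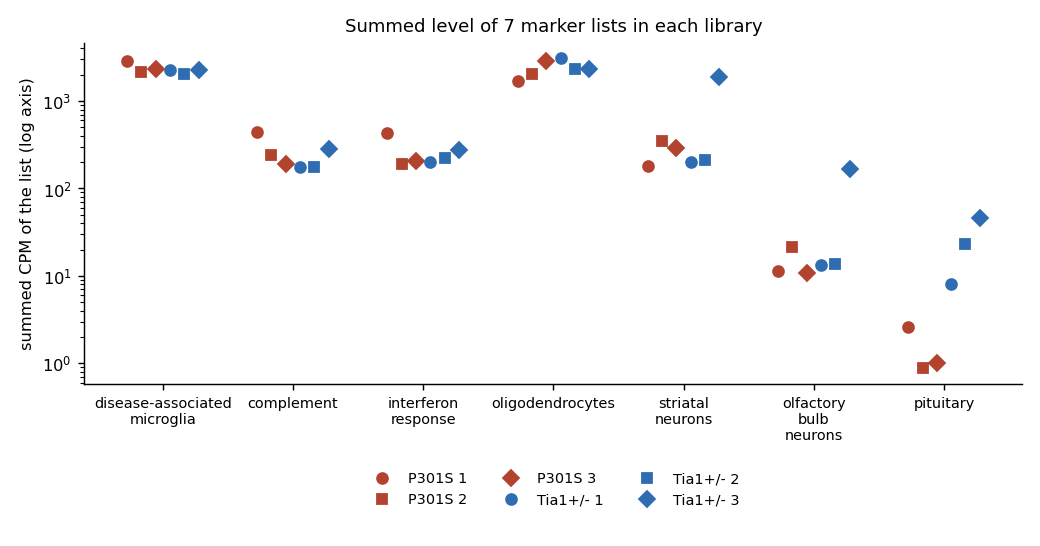
Summed CPM of the genes in 7 marker lists (vertical axis, log scale) in each library, red for P301S and blue for Tia1+/-, with circles, squares and diamonds for replicates 1, 2 and 3. Tia1+/- replicate 3 is the highest for striatal (1891 CPM), bulb (167 CPM) and pituitary (45.8 CPM) genes, and P301S replicate 1 is the highest for complement (445 CPM) and interferon (431 CPM) genes.

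The called gene was Gm8615, annotated as a transcribed processed pseudogene on chromosome 5 (GRCm38, 149155108 to 149156209). It was at 18.7, 20.3 and 19.9 CPM in the P301S libraries and at 9.55, 9.15 and 9.43 CPM in the Tia1+/- libraries. Both groups were tight, and the P301S level was 19.6 ± 0.826 CPM (SD, n = 3) against 9.38 ± 0.207 CPM (SD, n = 3). The log2 fold change was 1.06, with an interval from 0.83 to 1.30 and an edgeR adjusted p of 0.037. A processed pseudogene is a copy of an mRNA, so its reads may be shared with the gene it derives from, and its count is uncertain. The call was lost when any library other than Tia1+/- replicate 3 was left out, with edgeR adjusted p between 0.216 and 0.385. The log2 fold change stayed between 1.04 and 1.1.

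The genes that follow did not pass the threshold and were chosen for their small p after the values were seen. Zswim4, a protein with a SWIM zinc finger, was at 66.8, 42.2 and 52.2 CPM in P301S and at 17.8, 16.9 and 15.6 CPM in Tia1+/-. Its log2 fold change was 1.68 ± 0.173 (SE), with an edgeR adjusted p of 0.0615. Every P301S library lay above every Tia1+/- library, and the spread was wider in P301S. Ndn encodes necdin, a growth suppressor of neurons that is transcribed from the paternal chromosome. It was at 244, 257 and 200 CPM in P301S and at 110, 103 and 87.8 CPM in Tia1+/-, a log2 fold change of 1.22 with an adjusted p of 0.0615. Entpd4, a nucleotide hydrolase of the Golgi and lysosomes, was lower in P301S, at 95, 87.2 and 94.8 CPM against 149, 158 and 144 CPM. Its log2 fold change was -0.70 ± 0.0751 (SE), and its adjusted p was 0.0615. With Tia1+/- replicate 3 left out, the adjusted p was 0.0483 for Zswim4, 0.0274 for Ndn and 0.0248 for Entpd4.

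Fut10, a fucosyltransferase gene, was at 3.79, 2.78 and 3.75 CPM in P301S and at 9.01, 7.79 and 9.94 CPM in Tia1+/- (adjusted p = 0.22, edgeR). Pttg1, which encodes securin, an inhibitor of sister chromatid separation, was at 15.4, 12.6 and 13.7 CPM in P301S and at 27.4, 31.0 and 23.0 CPM in Tia1+/-. Sox2ot, the long noncoding RNA transcribed across Sox2, was at 4.31, 6.50 and 6.73 CPM in P301S and at 16.0, 14.5 and 24.0 CPM in Tia1+/-. The groups did not overlap for these 3 genes, all of them lower in P301S. Glo1, which encodes the glyoxalase that detoxifies methylglyoxal, was higher in P301S, at 186, 261 and 195 CPM against 110.4, 116 and 122 CPM (adjusted p = 0.273, edgeR). Ppt1, a lysosomal thioesterase that removes palmitate from proteins, was at 139, 144 and 144 CPM in P301S and at 108, 112 and 111 CPM in Tia1+/-.

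**Figure D4:**
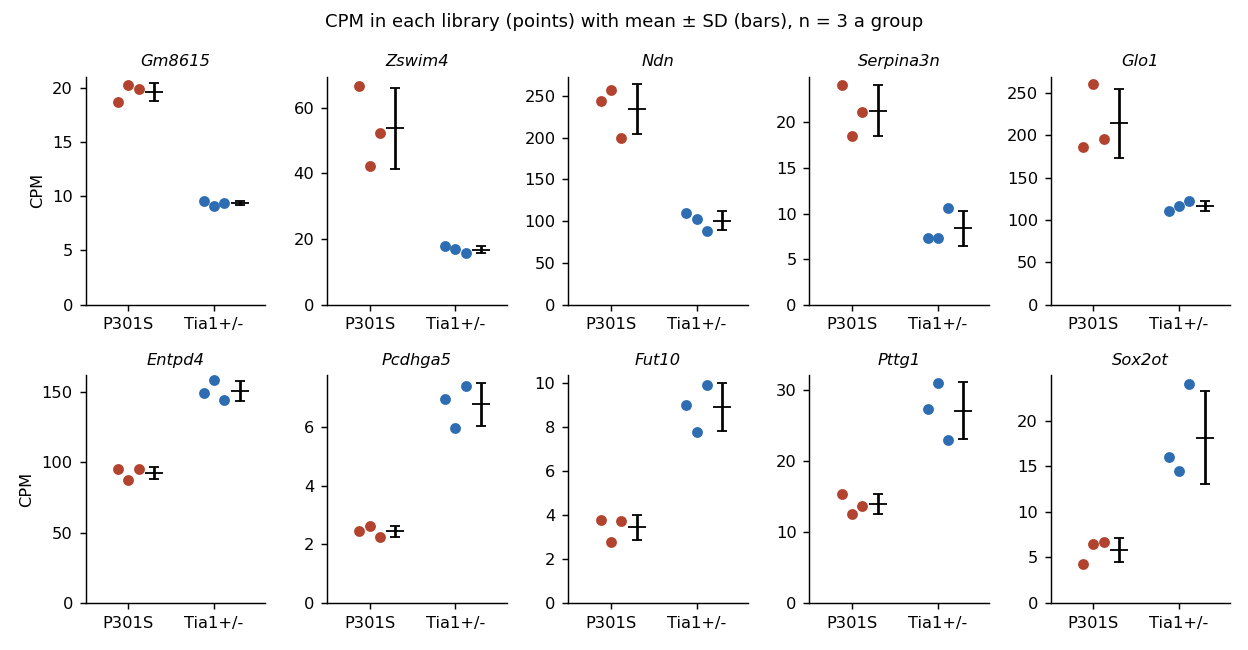
CPM (vertical axes, each from 0) of 10 autosomal genes in the 3 P301S (red) and 3 Tia1+/- (blue) libraries, with the mean and SD beside the points. The groups do not overlap for any of the 10, which were chosen for small p, and Gm8615 (18.7 to 20.3 against 9.15 to 9.55 CPM) has an adjusted p under 0.05.

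In the libraries titled P301S Tia1+/-, which entered no test here, some of these genes were near the Tia1+/- level, others lay between, and Fut10 was above both means. On a scale set over all 12 libraries, Gm8615 was at 8.36, 10.1 and 8.86 CPM in these libraries, against a mean of 19.9 CPM in P301S and 9.49 CPM in Tia1+/-. Entpd4 was at 134, 143 and 135 CPM in them, against means of 93.4 CPM in P301S and 152 CPM in Tia1+/-. Zswim4 was at 19.7, 44.7 and 18.4 CPM, so that a single library accounted for most of its spread. Serpina3n was at 14.8, 16.7 and 18.7 CPM, between the means of 21.5 CPM in P301S and 8.50 CPM in Tia1+/-. Fut10 was at 10.5, 11.5 and 12.3 CPM, above the means of 3.48 CPM in P301S and 9.01 CPM in Tia1+/-.

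Genes of reactive glia had higher fitted levels in P301S, and most of these differences were smaller without P301S replicate 1. Serpina3n, a protease inhibitor secreted by reactive astrocytes, was at 24.1, 18.5 and 21.2 CPM in P301S and at 7.30, 7.27 and 10.6 CPM in Tia1+/-. All P301S libraries were above all Tia1+/- libraries, with a log2 fold change of 1.34 ± 0.19 (SE) and an edgeR adjusted p of 0.22. The groups did not overlap for 3 of the 15 astrocyte markers, beside 12.5% of all autosomal genes. Gfap, the intermediate filament of astrocytes, was at 561, 172 and 140.3 CPM in P301S and at 98.8, 79.0 and 137 CPM in Tia1+/-. Its log2 fold change was 1.47 with all libraries and 0.57 without P301S replicate 1, while that of Serpina3n was 1.24 without it. Of the 15 astrocyte markers tested, 12 had a fitted level higher in P301S, 2 had an unadjusted p under 0.05 and none was called, with a median of 0.21 on the log2 scale beside -0.01 over all autosomal genes. The median was 0.15 without Tia1+/- replicate 3, with 6 at an unadjusted p under 0.05. Over all autosomal genes, the share with an unadjusted p under 0.05 was 5.2% with all 6 libraries and 12.1% without Tia1+/- replicate 3.

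Disease-associated microglia are the state seen around protein aggregates. Itgax, an integrin of activated microglia, was at 14.3, 2.14 and 0.417 CPM in P301S and at 0.682, 0.0649 and 0.701 CPM in Tia1+/-. Clec7a, a receptor for fungal glucans that marks the same state, was at 11.7, 1.59 and 0.476 CPM in P301S and at 0.136, 0.454 and 0.637 CPM in Tia1+/-. For both genes, P301S replicate 1 was far above the rest and P301S replicate 3 lay within the range of Tia1+/-. Of the 17 tested genes of disease-associated microglia, 15 had a fitted level higher in P301S and none was called. Of these 17 genes, 4 had an unadjusted p under 0.05, beside 5.2% of all autosomal genes. The median log2 fold change of the list was 0.34, and it was 0.06 without P301S replicate 1, when 10 of 17 were higher. Without Tia1+/- replicate 3, the median was 0.48, and 7 of 18 tested genes had an unadjusted p under 0.05, beside 12.1% of all autosomal genes. The 13 homeostatic microglia markers had a median of 0.23, with none at an unadjusted p under 0.05. The median was 0.12 without P301S replicate 1 and 0.39 without Tia1+/- replicate 3. Without Tia1+/- replicate 3, 8 of the 13 had an unadjusted p under 0.05, beside 12.1% of all autosomal genes. The summed level of the 13 markers was 689, 515 and 441 CPM in P301S and 381, 396 and 553 CPM in Tia1+/-.

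All 11 complement genes tested had a fitted level higher in P301S, with a median log2 fold change of 0.46, and none was called. C3, the central component of the cascade, was at 1.13, 1.43 and 0.774 CPM in P301S and at 0.136, 0.260 and 0.446 CPM in Tia1+/- (log2 fold change of 1.93, edgeR adjusted p = 0.815). Without P301S replicate 1, the log2 fold change of C3 was 1.91. The median of the complement list was 0.12 without that library and 0.72 without Tia1+/- replicate 3, when 7 of the 11 had an unadjusted p under 0.05, beside 1740 of 14383 autosomal genes.

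Of the 17 interferon response genes, 14 had a fitted level higher in P301S, with a median of 0.40, and the median was -0.10 without P301S replicate 1. It was 0.82 without Tia1+/- replicate 3, when 6 of the 17 had an unadjusted p under 0.05, beside 12.1% of all autosomal genes. Ifitm3, which restricts entry of viruses, was at 10.4, 4.76 and 5.24 CPM in P301S and at 2.66, 2.40 and 4.21 CPM in Tia1+/-. Ifit1, a sensor of viral RNA, was at 15, 4.76 and 3.63 CPM in P301S and at 1.91, 2.79 and 5.93 CPM in Tia1+/-, so that the groups overlapped. The promoters of these genes are shown because interferon acts through a known element, searched here as GAAANNGAAA on both strands. The sequences are from RefSeq on GRCm38.p6, 250 bases before to 50 after the start, on the strand of the gene, with matches in capitals.
Ifit1 (chr19:34640639-34640938, plus strand): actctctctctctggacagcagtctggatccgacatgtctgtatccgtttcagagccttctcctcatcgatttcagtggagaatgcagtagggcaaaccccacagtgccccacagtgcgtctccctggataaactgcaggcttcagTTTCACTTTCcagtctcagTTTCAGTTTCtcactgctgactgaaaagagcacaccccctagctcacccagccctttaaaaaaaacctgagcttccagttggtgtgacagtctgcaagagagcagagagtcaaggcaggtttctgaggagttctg
Ifitm3 (chr7:141010695-141010994, minus strand): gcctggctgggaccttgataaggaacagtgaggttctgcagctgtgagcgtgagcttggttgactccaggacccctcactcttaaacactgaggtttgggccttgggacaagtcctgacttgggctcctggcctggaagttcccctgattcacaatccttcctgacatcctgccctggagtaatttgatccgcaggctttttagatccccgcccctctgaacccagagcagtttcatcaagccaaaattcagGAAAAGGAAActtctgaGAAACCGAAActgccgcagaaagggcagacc
Ifit1 had 2 matches, which begin 104 and 85 bases before the start, and Ifitm3 had 2 matches just after the start. A match was found for 7 of the 13 interferon genes with a promoter in the table and for 3.99% of all 27025 genes there. A match is a description of letters and not of a bound factor.

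Oligodendrocyte genes had lower fitted levels in P301S. Of the 15 markers tested, 14 were lower, and the median was -0.27. An unadjusted p under 0.05 was found for 3 of the 15, all lower, beside 5.2% of all autosomal genes. Fa2h, which makes the hydroxylated lipids of myelin, was at 7.28, 5.16 and 7.26 CPM in P301S and at 11.5, 10.4 and 9.18 CPM in Tia1+/-. Sox10, the transcription factor of the lineage, was at 10.5, 10.8 and 11.7 CPM against 14.9, 12.9 and 15.2 CPM. The groups did not overlap for 3 of the 15, Fa2h and Sox10 among them, beside 12.5% of all autosomal genes. The edgeR adjusted p was 0.892 for Fa2h and for Sox10. The summed level of the list overlapped, at 1686, 2037 and 2855 CPM in P301S and 3094, 2344 and 2350.3 CPM in Tia1+/-. The median was -0.32 without Tia1+/- replicate 3 and -0.16 without P301S replicate 1.

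**Figure D5:**
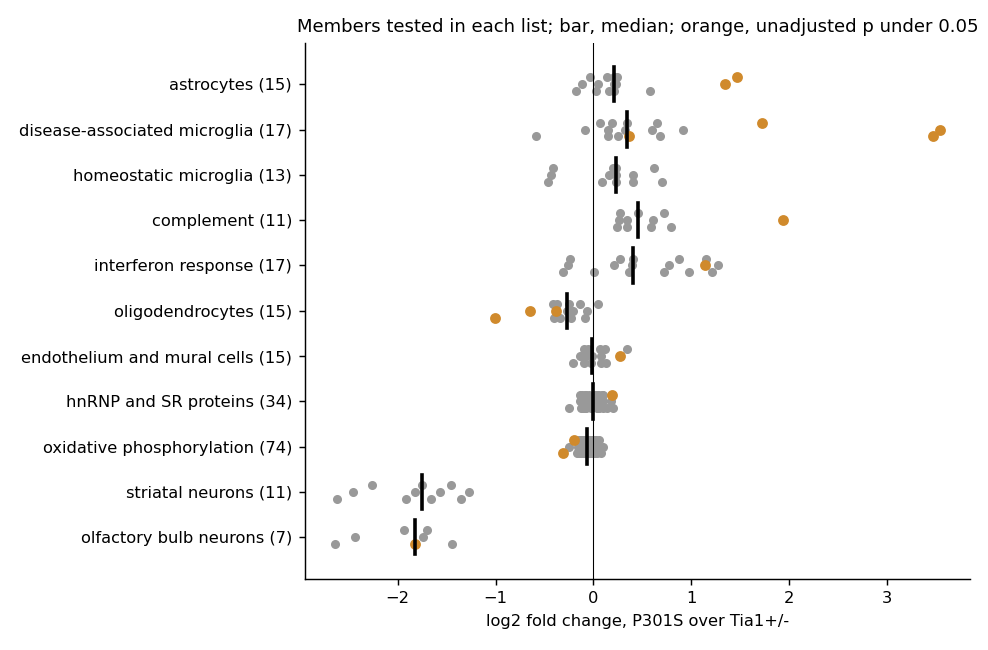
Log2 fold change of P301S over Tia1+/- (horizontal axis) for the tested members of 11 gene lists, with a black bar at the median, orange points for an unadjusted p under 0.05 and the number tested in brackets. Glial and immune medians lie between 0.21 and 0.46, that of oligodendrocytes at -0.27, and the hnRNP and SR and oxidative phosphorylation lists are narrow around 0.

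Genes of RNA processing, in which TIA1 acts, showed small differences. All 34 hnRNP and SR proteins tested had an interval within 1.5-fold, with log2 fold changes between -0.25 and 0.20. Of the 39 spliceosomal proteins, 35 had such an interval, and so did 17 of 23 neuronal splicing regulators and 22 of 25 stress granule proteins, beside 60.3% over all autosomal genes, 79.2% of those at 10 to 100 CPM and 85.0% of those at 100 CPM or more. In these 4 lists none was called, and the smallest p values belonged to Ptbp2, a splicing repressor of neurons, and Sf1, the branch point binding protein. Ptbp2 was at 142, 154 and 156 CPM in P301S and at 134, 126 and 137 CPM in Tia1+/-, and Sf1 was at 45.6, 53.7 and 51.9 CPM against 61.7, 53.8 and 66.1 CPM. The edgeR adjusted p was 0.892 for both.

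Genes of energy supply and protein turnover showed small differences as well. The interval lay within 1.5-fold for all 74 tested genes of oxidative phosphorylation, for 74 of 79 ribosomal proteins, for 34 of 36 proteasome subunits and for 24 of 25 autophagy genes. Most of these genes are highly expressed, and 85.0% of all genes at 100 CPM or more had such an interval. Of the oxidative phosphorylation genes, 62 had a fitted level lower in P301S, with a median log2 fold change of -0.06 and none beyond -0.31. The ER chaperones had 18 of 20 within 1.5-fold, and Hspa5, the main chaperone of the ER lumen, was at 403, 386 and 432 CPM in P301S and at 343, 353 and 385 CPM in Tia1+/-.

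The tau gene and its modifiers showed no called difference, beside 1 called gene among all 14227 tested. Mouse Mapt was at 433, 458 and 452 CPM in P301S and at 496, 449 and 341 CPM in Tia1+/-, and how reads of the human transgene were counted is not given in the sources used here. Prnp, whose promoter drives the transgene, was at 2096, 1999 and 2133 CPM in P301S and at 1899.9, 1644 and 985 CPM in Tia1+/-. The groups did not overlap for Prnp, as was so for 12.5% of all autosomal genes. Prnp had a log2 fold change of 0.46, an interval from -0.08 to 1.0 and an edgeR adjusted p of 0.892. The log2 fold change of Prnp was 0.23 without Tia1+/- replicate 3. Of 27 tau kinases and phosphatases, 24 had an interval within 1.5-fold, as did 18 of 22 microtubule-associated proteins. Over all autosomal genes the share was 60.3%, and it was 85.0% among those at 100 CPM or more.

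Synaptic genes were read against the same 60.3% of all autosomal genes. Many of them are highly expressed, and the share was 79.2% at 10 to 100 CPM and 85.0% at 100 CPM or more. Of 34 genes of vesicle release, 16 had an interval within 1.5-fold, beside 25 of 36 glutamate receptor and scaffold genes and 13 of 18 GABA receptor genes. The vesicle release genes summed to 11495 CPM in Tia1+/- replicate 3 and to between 14961 and 17494 CPM in the other libraries. Their median was -0.01 with 17 of 34 higher in P301S, and -0.16 with 9 of 34 higher without that replicate. An unadjusted p under 0.05 was then found for 10, beside 12.1% of all autosomal genes. Gabra5, the alpha subunit of extrasynaptic receptors of the hippocampus and deep cortex, was at 84.5, 78.4 and 78.5 CPM in P301S and at 58.1, 55.5 and 58.8 CPM in Tia1+/-. Gabrd, the delta subunit of extrasynaptic receptors, was lower in P301S, at 51.9, 57.3 and 60.1 CPM against 71.0, 76.0 and 71.1 CPM. The groups did not overlap for 6 of the 18 GABA receptor genes, Gabra5 and Gabrd among them, beside 12.5% of all autosomal genes. The edgeR adjusted p was 0.222 for Gabra5 and 0.749 for Gabrd.

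Lists of genes that respond to activity, time of day or cell division were also counted, against the 5.2% of all autosomal genes with an unadjusted p under 0.05. None of the 22 immediate early genes had an unadjusted p under 0.05, and their median log2 fold change was 0.09. The interval lay within 1.5-fold for 2 of the 22, beside 60.3% of all autosomal genes, so they are not shown to be alike. Their median was 0.30 without P301S replicate 1 and -0.07 without Tia1+/- replicate 3. Of 17 circadian clock genes, 3 had an unadjusted p under 0.05, all lower in P301S. Among them was Dbp, a clock output transcription factor, at 33.6, 27.8 and 34.2 CPM against 37.9, 41.1 and 41.6 CPM. Of 45 replication-dependent histone genes, 6 had one, all lower in P301S, and of 337 genes with KRAB zinc finger symbols, 20 had one, a share near that of all autosomal genes, and 16 of the 20 were lower. Histone and zinc finger genes hold near-identical copies, so their counts are uncertain. None of these genes was called.

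The clustered protocadherins, adhesion proteins that give neurons a surface identity, had mostly lower fitted levels in P301S. Of 56 tested on chromosome 18, 49 had a lower fitted level, 13 had an unadjusted p under 0.05 (all lower) and none was called, with a median log2 fold change of -0.29. Over all autosomal genes, 7400 of 14227 had a lower fitted level and 5.2% had an unadjusted p under 0.05. Without Tia1+/- replicate 3, 43 of them were lower. They were picked after their values were seen, and members of the alpha cluster share their last exons, as do those of the gamma cluster, so their counts are not independent. Pcdhga5 was at 2.46, 2.62 and 2.26 CPM in P301S and at 6.96, 5.97 and 7.39 CPM in Tia1+/- (log2 fold change of -1.47, edgeR adjusted p = 0.128). Pcdhga7 was at 8.46, 8.72 and 8.28 CPM against 14.7, 14.8 and 17.1 CPM (adjusted p = 0.205, edgeR). The 12 members of the gamma A group had a median of -0.53, and the 13 of the alpha cluster a median of -0.21.

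Genes near each other on a chromosome were examined because the PS19 and Tia1 mutant lines have different strain origins. Within 5 Mb of Tia1 on chromosome 6, 3 of 110 tested genes had an unadjusted p under 0.05 (2.73%, beside 5.2% over all autosomes), none was called, and the median log2 fold change was -0.02. Of 416 windows of 5 Mb with at least 10 tested genes, the highest share was in chromosome 6 from 55000001 to 60000000, where 8 of 25 genes had an unadjusted p under 0.05. In that window, 7 of the 8 were higher in P301S, among them Avl9 at 151, 153 and 155 CPM against 126 to 133 CPM. Herc6, an interferon-induced ubiquitin ligase gene of the same window, was at 35.4, 37.4 and 42.5 CPM in P301S and at 22.6, 21 and 7.01 CPM in Tia1+/-. Per chromosome, the share ran from 3.57% on chromosome 10 to 8.54% on chromosome 3.

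Some neighbouring genes had differences of the same sign. Glo1 and Dnah8, a dynein heavy chain gene that overlaps its end on chromosome 17, were both higher in P301S, and Dnah8 was at 1.79, 3.49 and 2.38 CPM in P301S and at 0.819, 0.649 and 0.956 CPM in Tia1+/-. The noncoding gene 2610507I01Rik and the mitochondrial ribosomal gene Mrpl55 are neighbours on chromosome 11, between 59199836 and 59206134. 2610507I01Rik was at 8.41, 10.9 and 8.57 CPM in P301S and at 18.8, 17.4 and 18.0 CPM in Tia1+/-, and Mrpl55 was at 15.7, 15.5 and 14.6 CPM against 20, 21.9 and 22.1 CPM. Both were lower in P301S, with no overlap between groups, and both were named for their small p. Beside Ndn on chromosome 7, the imprinted gene Mkrn3 went the other way, at 0.410, 0.555 and 0.595 CPM in P301S and 0.75, 1.1 and 2.17 CPM in Tia1+/-. The strand setting of the counting is not given in the sources used here, so reads of overlapping genes may be shared.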

How the data were processed

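RNA was sequenced in pairs of reads. The deposited raw counts are whole reads per gene that the authors made with featureCounts after alignment to mm10 (TopHat2 2.0.6 in the submitters' processing notes, while the methods name another release). The annotation and strand setting are not given in the sources used here. Gene positions came from GENCODE M21 and RefSeq on GRCm38, and 23926 of 24062 symbols matched. The 6 libraries were normalized by TMM and tested with edgeR 4.0.16 (filterByExpr, quasi-likelihood F test) in R 4.3.3. The Benjamini-Hochberg adjustment ran over the 14800 genes tested on all chromosomes. The study used DESeq2, run here (version 1.42.0) as an alternative. Intervals are 95% from the standard error of the fit. Distances used log2 CPM with a prior count of 2. The scripts were tested on simulated data.

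The comparison, the 42 gene lists and the rule for named genes were chosen with earlier results of these data known. The rule took up to 15 rises and falls among called genes, 4 members per list by p, the genotype genes, the 10 most alike and the windows; the genes named for small p were added later. With 3 mice a group, each p-value sets the difference between the groups against the spread between these mice. Some genes that the rule names are not reported here.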

Additional observations from a re-analysis of the deposited data

How the results depend on the processing

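The number of called autosomal genes (1, higher in P301S) moved with most settings. It was 3 with no filter on low counts (all 3 higher in P301S) and 0 with at least 10 counts in each of the 6 libraries, when 704 genes had an unadjusted p under 0.05. With all 12 libraries in the fit it was 4 (0 higher in P301S, 4 in Tia1+/-), and with the 9 libraries without WT it was 9 (3 and 6). With the olfactory bulb neuron level as a covariate it was 18 (10 and 8), with the striatal neuron level 14 (6 and 8), and by the DESeq2 Wald test 40 (17 and 23). With groups taken from the genotype entries it was 2904 (1360 and 1544). That setting sets P301S against other mice, the libraries titled P301S Tia1+/-, so it is a different comparison. In it, 9 named genes that were not called here were called with the opposite sign. Their log2 fold changes were 0.594 for Rorb, 1.368 for Lhx6, 0.83 for Prox1, -0.621 for Fosb and -0.727 for Cdkn1a. They were 0.395 for Ppp2r2a, -0.525 for Gabra5, 0.275 for Arpc1a and 0.319 for Pcdhac2. By the titles, Arpc1a was at -0.009, near no change. Leaving out each library in turn gave between 0 and 9 calls, of which 0 to 4 were higher in P301S and 0 to 5 in Tia1+/-, with the most without Tia1+/- replicate 3. DESeq2 size factors in edgeR, and 2 tests chosen after seeing the data (a robust fit and limma voom), gave 1. The number of genes with an interval within 1.5-fold (8572) stayed within 1.5 times its value in every setting, from 7364 to 9627. The cause of these changes was not tested.

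The replicate numbers share no stated litter or day, and the correlations of same-numbered deviations were -0.0736, -0.273 and -0.248, so they were not used as pairs. With the replicate number as a block, 0 autosomal genes were called (0 higher in P301S), and 391 had an unadjusted p under 0.05 by edgeR. Over 279 named genes and 17 settings other than the genotype entries, no called value changed sign. Few values were called, so this count says little about direction. Fitted signs did change for genes that were not called. The log2 fold change of Rgs9 was -1.82 in the main fit and 0.75 at its highest among the settings, and that of Calb2 was -1.44 and 0.29. Counts near 1 CPM and intervals under 1.1-fold are beyond this depth and number of mice.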
